A study of Rattus norvegicus with 9 samples.

Results

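The DNA replication genes of rat lung are the 36 genes that the deposited table assigns to the KEGG DNA replication pathway and that had a mean FPKM of at least 0.5 over the 9 libraries. FPKM is a level given as sequenced fragments scaled by the length of the transcript and the depth of the library. All 36 annotated genes passed that level, which was set without reference to the groups, and they are set here against the 15402 genes that passed it among 22833 in the table. Pole, the lowest of them, averaged 0.688 FPKM, and no annotated gene lay below the limit.

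Lung RNA came from male Sprague-Dawley rats aged 8 weeks, all anaesthetised with urethane, given heparin, ventilated and opened at the left chest, with 3 libraries in each of 3 groups. In the I-post C group (ischemic postconditioning), a left hilum clamp of 30 min was followed by 3 cycles, each with 30 s of ischemia and 30 s of reperfusion, and then by reperfusion for 2 h. The IR group (ischemia-reperfusion) had the same 30 min clamp and 2 h of reperfusion with no cycles, and in the Sham group the hilum was isolated and never clamped. The labels give the tissue as lung, with no cell sorting, and they do not say which rat gave each library, so p-values measure the spread between these libraries.

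DNA replication begins at origins, where the MCM helicase is loaded in G1 and opens the double helix in S phase. DNA polymerase alpha with primase lays down primers, polymerase epsilon extends the leading strand and polymerase delta the lagging strand, both held to DNA by the PCNA clamp. Many of these genes are transcribed under E2F factors when cells enter S phase, and in adult lung, where few cells divide at rest, they are read as a sign of proliferating cells, although several also serve DNA repair. In the table, 22 of the 36 also carried a repair pathway, 7 the cell cycle pathway, and 8 no other pathway.

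E2F-type words, which the choice of genes did not use, were more frequent in the promoters of these genes than in those of all genes. The promoters of all genes were not limited to the 15402 genes that passed the level, and base content was not matched. RefSeq windows of 300 bases, 250 before and 50 after the transcript start, were taken on the GRCr8 rat assembly. They were found for 32 of the 36 genes, by gene identifier or symbol, and not for Mcm4, Rpa3, LOC100911727 or LOC100362333. An E2F-type match was counted for the word TTCGCGC, and likewise for TTGGCGC, then also for TTCCCGC, and finally for TTGCCGC, on either strand. It was found in 20 of the 32 windows (62.5%), against 3186 of all 33469 rat windows (9.52%). There were 38 such matches, counting overlapping ones on opposite strands separately, and 30 of them began within 100 bases of the start. The CCAAT box (CCAAT, either strand) was in 17 of the 32 windows (53.1%), against 37.5% of all windows, and the CHR element (TTTGAA, either strand) in 4 (12.5%), against 18.3%. The window counted for Pole3, with 1 E2F-type match, lies on chromosome 5, whereas the Pole3 entry lies on chromosome 7 in rn6. A match is a description of letters and not a bound site.

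Windows of 5 genes are printed to show that range, with E2F-type and CCAAT matches in capitals. Mcm2 (GRCr8 chr4:122918045-122918344, minus strand) and Mcm6 (chr13:42404303-42404602, minus strand) encode helicase subunits and hold 2 and 5 E2F-type matches. Fen1 (chr1:216274347-216274646, minus strand) and Pole4 (chr4:116728802-116729101, minus strand), whose clamped libraries lay on opposite sides of the Sham libraries, hold 1 each. Pcna (chr3:139955771-139956070, minus strand), the most abundant of the genes, holds none of the 4 E2F-type words in this window and 1 CCAAT box. Each run is read 5′ to 3′ along the gene.
Mcm2: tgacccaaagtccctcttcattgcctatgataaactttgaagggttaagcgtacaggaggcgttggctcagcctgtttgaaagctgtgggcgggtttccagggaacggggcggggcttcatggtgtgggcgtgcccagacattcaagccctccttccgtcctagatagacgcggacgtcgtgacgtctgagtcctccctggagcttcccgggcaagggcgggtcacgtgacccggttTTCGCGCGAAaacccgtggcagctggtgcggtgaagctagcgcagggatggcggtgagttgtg
Mcm6: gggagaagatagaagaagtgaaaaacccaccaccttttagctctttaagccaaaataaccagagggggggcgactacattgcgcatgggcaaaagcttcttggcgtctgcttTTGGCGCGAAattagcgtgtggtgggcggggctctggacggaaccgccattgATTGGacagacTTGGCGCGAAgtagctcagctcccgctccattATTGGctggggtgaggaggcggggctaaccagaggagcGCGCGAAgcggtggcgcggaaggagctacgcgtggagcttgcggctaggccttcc
Fen1: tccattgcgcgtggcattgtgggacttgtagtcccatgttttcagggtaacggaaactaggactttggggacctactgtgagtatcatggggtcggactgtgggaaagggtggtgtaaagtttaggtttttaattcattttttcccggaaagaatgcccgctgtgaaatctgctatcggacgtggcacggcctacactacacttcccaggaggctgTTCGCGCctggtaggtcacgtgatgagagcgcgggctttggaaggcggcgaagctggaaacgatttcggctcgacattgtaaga
Pole4: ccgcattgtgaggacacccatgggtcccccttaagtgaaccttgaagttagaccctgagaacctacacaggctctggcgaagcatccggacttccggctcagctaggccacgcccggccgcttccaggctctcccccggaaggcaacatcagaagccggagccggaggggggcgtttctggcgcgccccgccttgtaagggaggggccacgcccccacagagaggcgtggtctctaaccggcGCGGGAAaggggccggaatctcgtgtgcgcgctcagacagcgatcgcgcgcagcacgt
Pcna: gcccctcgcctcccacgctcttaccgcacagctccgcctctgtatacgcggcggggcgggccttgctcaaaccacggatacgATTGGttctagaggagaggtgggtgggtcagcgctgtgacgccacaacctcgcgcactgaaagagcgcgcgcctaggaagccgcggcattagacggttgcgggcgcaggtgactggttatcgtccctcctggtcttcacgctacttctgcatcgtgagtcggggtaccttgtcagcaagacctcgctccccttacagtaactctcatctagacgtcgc

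Total counts ran from 45110590 to 51214941 per library, and the 36 genes took 0.0834% to 0.1% of them, with no fewer than 27 counts for any gene in any library. Each total exceeds the mapped reads reported for its library, so a count here is not a single sequenced fragment. Counts given for a gene therefore overstate the number of fragments behind it. The Sham 3 library lay apart from the others on the first principal component of all genes (100.8, against -38.2 to 15.3). IR 3 lay apart on the second (70.8, against -41.1 to 14.5) and carried skeletal muscle transcripts, with Acta1, skeletal actin, at 1558 FPKM against 1.52 to 34.8 FPKM elsewhere. Sftpc, the surfactant protein of alveolar type II cells, was between 15691 and 37521 FPKM. RNA of whole tissue was measured, so fewer cells of a type and less RNA per cell cannot be told apart.

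All 36 genes were detected in every library, at levels that differed more between genes than between libraries. By mean FPKM, 8 lay under 5 FPKM, 19 between 5 and 15 FPKM and 9 at 15 FPKM or above. The median of the ratio of highest to lowest library was 1.92 for the 36 genes and 2.56 for all 15402, and the median within-group SD was 0.278 and 0.373 on the log2 scale. Over the 13902 genes within the same range of mean FPKM, the median within-group SD was 0.376.

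**Figure D1:**
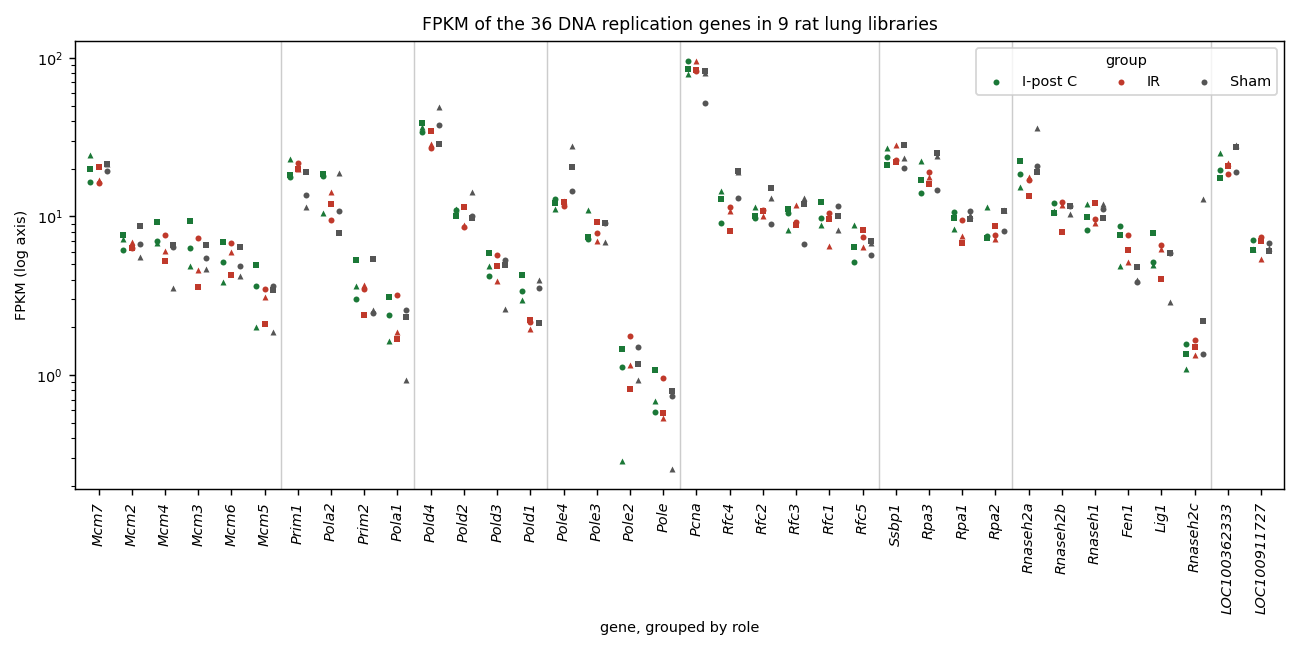
FPKM (log axis) of each of the 36 DNA replication genes in each library, grouped by role, with I-post C, IR and Sham libraries side by side and circles, squares and triangles for libraries 1, 2 and 3. Genes of one complex lie far apart, such as Pole4 at a mean of 15.0 FPKM and Pole at 0.688 FPKM, while the libraries of one gene lie close, with a median ratio of highest to lowest of 1.92.

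The MCM helicase is a ring of one copy of each of Mcm2 to Mcm7, yet the transcript levels of the 6 subunits were unequal. Mcm7 averaged 19.6 FPKM, 2.87 times Mcm2 (6.84 FPKM) and 6.27 times Mcm5 (3.13 FPKM), and it was above both in all 9 libraries. Mcm4, Mcm3 and Mcm6 lay between Mcm2 and Mcm5, at 6.51, 5.87 and 5.38 FPKM. Mcm4 had 6.96, 9.28 and 6.78 FPKM in I-post C lungs, 7.63, 5.26 and 6.09 FPKM in IR lungs and 6.43, 6.60 and 3.55 FPKM in Sham lungs. The I-post C libraries were all above the Sham libraries for Mcm4 and overlapped the IR libraries. Mcm3 had 6.35, 9.35 and 4.90 FPKM in I-post C lungs, 7.32, 3.58 and 4.62 FPKM in IR lungs and 5.45, 6.63 and 4.65 FPKM in Sham lungs, with all 3 groups overlapping. Summed over the 6 subunits, the level was 50.6 ± 6.75 FPKM in I-post C lungs, 44.5 ± 2.92 FPKM in IR lungs and 47.0 ± 6.15 FPKM in Sham lungs (SD, n = 3 each), differences within the spread of the libraries.

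The priming enzymes showed the same inequality within a complex. Prim1, the catalytic primase subunit, averaged 18.3 FPKM, 5.16 times its partner Prim2 (3.55 FPKM), and Pola2, the accessory subunit of polymerase alpha, averaged 13.4 FPKM, 6.13 times the catalytic Pola1 (2.19 FPKM). Both orders held in all 9 libraries. Prim1 (chr7:2435553-2451165 in rn6) had 17.7, 18.2 and 23.1 FPKM in I-post C lungs, 21.6, 20.0 and 19.9 FPKM in IR lungs and 13.6, 19.2 and 11.4 FPKM in Sham lungs. Every IR library was above every Sham library for Prim1, with Sham 2 close to the IR values. Pola1 had 2.39, 3.10 and 1.64 FPKM in I-post C lungs, 3.19, 1.68 and 1.87 FPKM in IR lungs and 2.57, 2.31 and 0.925 FPKM in Sham lungs, and Sham 3 was the lowest library.

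Among the polymerase delta genes, Pold4, the smallest subunit, averaged 35.1 FPKM, 11.9 times the catalytic subunit Pold1 (2.95 FPKM), and Pold2 and Pold3 lay between at 10.6 and 4.71 FPKM. Pold4 had 34.2, 39.1 and 36.9 FPKM in I-post C lungs, 27.0, 34.6 and 28.8 FPKM in IR lungs and 37.5, 28.8 and 49.0 FPKM in Sham lungs. Those groups overlapped, and Sham 3 was the highest library. Pold1 (chr1:100537900-100554488) had 3.40, 4.28 and 2.96 FPKM in I-post C lungs, 2.14, 2.23 and 1.94 FPKM in IR lungs and 3.53, 2.11 and 3.96 FPKM in Sham lungs. For Pold1 the 3 IR libraries were close together and below every I-post C library, while Sham 2 sat among the IR values.

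Polymerase epsilon had the lowest catalytic subunit of the set. Pole, the leading strand polymerase, had 0.587, 1.07 and 0.685 FPKM in I-post C lungs, 0.956, 0.575 and 0.538 FPKM in IR lungs and 0.737, 0.788 and 0.257 FPKM in Sham lungs, and Pole2, an essential accessory subunit, had 1.13, 1.46 and 0.287 FPKM in I-post C lungs, 1.76, 0.811 and 1.16 FPKM in IR lungs and 1.51, 1.17 and 0.925 FPKM in Sham lungs. The lowest Pole2 value, in I-post C 3, rested on 27 counts, the fewest of any of the genes. Pole4, a small histone-fold subunit (chr4:113491644-113497455), averaged 21.9 times Pole and had 12.9, 12.2 and 11.1 FPKM in I-post C lungs, 11.6, 12.2 and 12.5 FPKM in IR lungs and 14.5, 20.6 and 27.7 FPKM in Sham lungs. All 6 clamped libraries were below all 3 Sham libraries for Pole4, and the Sham libraries were spread widely, at 20.9 ± 6.59 FPKM, against 12.1 ± 0.905 FPKM in I-post C and 12.1 ± 0.470 FPKM in IR lungs (SD, n = 3 each). Of all genes, 9.44% were separated lower in IR against Sham and 4.08% in I-post C against Sham. The share separated lower in both was not counted. Pole3, the partner of Pole4, averaged 8.32 FPKM, but its entry lies at chr7:118816218-118816655 in rn6, a span of 438 bases, whereas RefSeq places Pole3 on chromosome 5 in GRCr8. An entry named LOC100362333 and described as polymerase epsilon 3 lies on chromosome 5 in rn6 (chr5:78380816-78384047) and averaged 22.0 FPKM. How reads shared by such copies were divided is not given, so the levels of Pole3 and LOC100362333, and of Lig1 and the nearby LOC100911727 described as DNA ligase 1-like (5.5 and 6.51 FPKM), are uncertain.

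Pcna, the sliding clamp, was the most abundant gene of the set, with 95.3, 84.9 and 78.7 FPKM in I-post C lungs, 82.8, 83.3 and 94.9 FPKM in IR lungs and 51.6, 83.0 and 80.0 FPKM in Sham lungs. Sham 1 was the lowest library and the other 8 lay between 78.7 and 95.3 FPKM. The clamp loader subunits Rfc1 to Rfc5 averaged between 6.89 (Rfc5) and 13.1 FPKM (Rfc4), the narrowest range of the complexes with 4 or more genes. Rfc4 (chr11:81358592-81373043) had 9.10, 12.8 and 14.4 FPKM in I-post C lungs, 11.5, 8.08 and 10.8 FPKM in IR lungs and 13.1, 19.4 and 19.1 FPKM in Sham lungs. Every IR library was below every Sham library for Rfc4, while I-post C and Sham libraries overlapped.

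The single-strand binding proteins keep unwound DNA from folding back. Ssbp1, which works in mitochondria and not at nuclear forks, was the most abundant of them, at 23.7, 21.1 and 27.1 FPKM in I-post C lungs, 22.8, 22.0 and 28.1 FPKM in IR lungs and 20.3, 28.2 and 23.2 FPKM in Sham lungs, with full overlap. Rpa1 and Rpa2, subunits of the nuclear trimer, were nearly equal (9.27 and 8.85 FPKM, with Rpa1 the higher in 5 of 9 libraries), and Rpa3 averaged 18.9 FPKM. Rpa1 had 10.7, 9.84 and 8.32 FPKM in I-post C lungs, 9.53, 6.85 and 7.49 FPKM in IR lungs and 10.8, 9.63 and 10.3 FPKM in Sham lungs, each IR library lying below each Sham library by a small margin.

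Fen1 removes the flap at the end of an Okazaki fragment, Lig1 seals the nick, and the RNase H enzymes remove RNA paired with DNA. Fen1 (chr1:226251518-226255886) had 8.75, 7.64 and 4.90 FPKM in I-post C lungs, 7.60, 6.17 and 5.19 FPKM in IR lungs and 3.86, 4.79 and 4.0 FPKM in Sham lungs. All 6 clamped libraries were above all 3 Sham libraries for Fen1, with I-post C 3 only just above Sham 2. Of all genes, 5.62% were separated higher in IR against Sham and 5.56% in I-post C against Sham. The share separated higher in both was not counted. Lig1 had 5.13, 7.85 and 4.91 FPKM in I-post C lungs, 6.65, 4.03 and 6.27 FPKM in IR lungs and 5.90, 5.86 and 2.87 FPKM in Sham lungs, and the groups overlapped. Among the RNase H2 genes, the catalytic Rnaseh2a averaged 20.0 FPKM and was 36.1 FPKM in Sham 3, against 13.4 to 22.2 FPKM in the other 8 libraries. Rnaseh2c, a small subunit of the same enzyme (chr1:220966655-220967825), had 1.57, 1.36 and 1.10 FPKM in I-post C lungs, 1.66, 1.51 and 1.35 FPKM in IR lungs and 1.36, 2.19 and 12.9 FPKM in Sham lungs. One library decided that gene, since Sham 3 had 530 counts of Rnaseh2c and the other 8 libraries 45 to 87. The third subunit, Rnaseh2b, ranged from 8.00 to 12.4 FPKM with overlapping groups.

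The comparison of IR with Sham lungs asks what clamping and 2 h of reperfusion changed. No DNA replication gene passed the call in edgeR's quasi-likelihood test (Benjamini-Hochberg adjusted p under 0.05 over the 15402 genes, together with a change on the log2 scale, log2FC, no smaller than 1 either way), while 46 of all genes did (0.299%, and 0 to 55 genes when single libraries were left out). DESeq2 and limma also called none of the 36. Unadjusted p was under 0.05 for 4 of the 36 (11.1%), close to the 12.2% of all genes. The FPKM values did not overlap between the groups for 2 genes that were higher in IR (Fen1 and Prim1), against 5.62% of all genes, which is 5.56% of the 36. They did not overlap for 4 that were lower in IR (Pole4, Rfc4, Rnaseh2a and Rpa1), which is 11.1% of the 36 against 9.44% of all genes. The log2FC was above 0 for 17 of the 36 (47.2%, and 47.9% of all genes), with a median of -0.03 (-0.02 over all genes) and a median size of 0.23 (0.31 over all genes).

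Fen1 was at 6.32 ± 1.21 FPKM in IR and 4.22 ± 0.499 FPKM in Sham lungs (SD, n = 3 each), a log2FC of 0.63 (SE 0.28, edgeR adjusted p = 0.404). Prim1 was at 20.5 ± 0.913 FPKM in IR and 14.7 ± 4.01 FPKM in Sham lungs, with a log2FC of 0.54 (SE 0.25, edgeR adjusted p = 0.425). Both fall short of the threshold. In the other direction, Pole4 had a log2FC of -0.75 (SE 0.28, edgeR adjusted p = 0.335) and Rfc4 of -0.71 (SE 0.31, edgeR adjusted p = 0.398). The value for Rnaseh2c, -1.87 (SE 0.79, edgeR adjusted p = 0.379), was -0.18 without Sham 3, and that for Pole4 was -0.45 without it. Pole4 gave the lowest adjusted p of any of the genes in any of the 22 fits run, 0.0893, when Sham 1 was left out. Over the 22 fits the log2FC ran from 0.48 to 0.75 for Fen1, from 0.34 to 0.81 for Prim1, from -1.01 to -0.45 for Pole4 and from -0.94 to -0.59 for Rfc4.

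By role, the medians of the log2FC in IR against Sham were 0.01 for the MCM helicase, 0.15 for polymerase alpha and primase, -0.24 for polymerase delta, 0.07 for polymerase epsilon, -0.07 for the clamp and its loader, -0.27 for the single-strand binding proteins and -0.01 for lagging strand processing. Estimates within a role differed in sign, none of them past the threshold. In polymerase epsilon, Pole4 was at -0.75 and Pole at 0.28, and in lagging strand processing Fen1 was at 0.63 and Rnaseh2a at -0.61 (-0.20 without Sham 3). For all 6 MCM genes the 95% intervals lay between -1 and 1, for example from -0.64 to 0.34 for Mcm7 and from -0.57 to 0.51 for Mcm2.

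**Figure D2:**
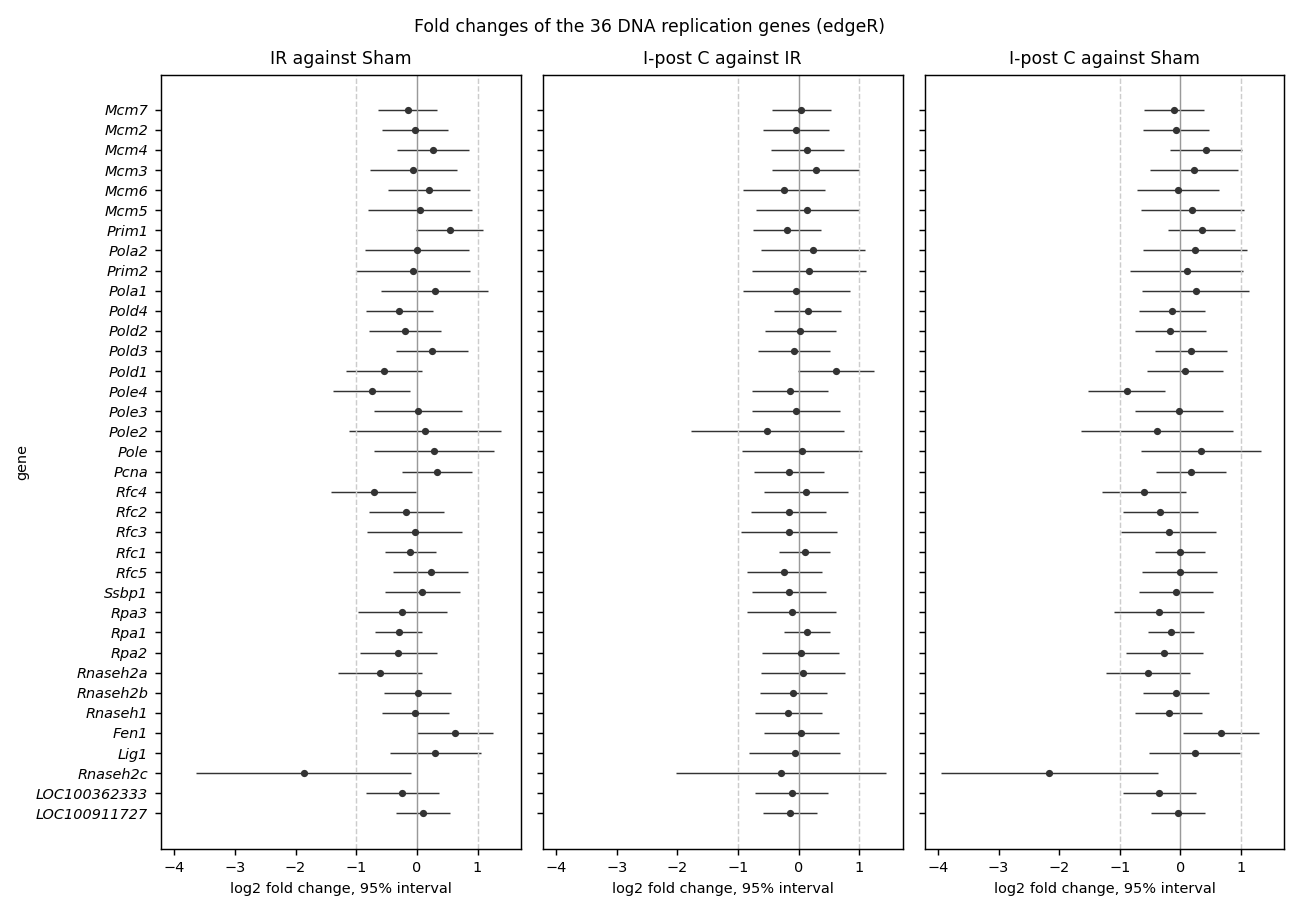
Estimated log2 fold change with its 95% interval (edgeR) for each of the 36 genes in the 3 comparisons (IR over Sham, I-post C over IR, I-post C over Sham), grouped by role, with dashed lines at 1 and -1. The points lie between -1 and 1 except for Rnaseh2c in both comparisons with Sham, Rnaseh2c has the widest intervals, and no gene passed an adjusted p of 0.05.

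The comparison of I-post C with IR lungs asks what the postconditioning cycles changed. By edgeR none of the 36 genes was called (and 0 of all genes, 0%, against 14 of all genes with DESeq2), nor by DESeq2 or limma, and none had an unadjusted p under 0.05, against 3.01% of all genes. Pold1 alone was separated, higher in I-post C (1 of 36, 2.78%, against 11.2% of all genes), and no gene was separated lower (2.59% of all genes). The log2FC was above 0 for 16 of the 36 (44.4%, against 47.6%), with a median of -0.04 (-0.01 over all genes) and a median size of 0.14 (0.19 over all genes). That split depends on scaling, since on log2(FPKM + 0.5) without further scaling 23 of the 36 lay above 0, with a median of 0.07, and the median of all genes was itself 0.11. Pold1 was at 3.54 ± 0.674 FPKM in I-post C and 2.1 ± 0.145 FPKM in IR lungs (SD, n = 3 each), a log2FC of 0.61 (SE 0.28, edgeR unadjusted p = 0.0550, adjusted p = 1). Mcm3, the next highest, was at 0.28 (SE 0.32), and Pole2, the lowest, at -0.52 (SE 0.56), both with an edgeR adjusted p of 1. For Fen1 and Pole4, the clamped groups differed by 0.04 (95% interval -0.58 to 0.66) and -0.14 (-0.77 to 0.49).

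The comparison of I-post C with Sham lungs shares its Sham libraries with that of IR against Sham. Here the edgeR test called none of the 36 genes (and 0 of all genes, 0%, against 127 of all genes with DESeq2), DESeq2 and limma called none of the 36 either, and 3 had an unadjusted p under 0.05 (8.33%, against 6.91% of all genes). Fen1 and Mcm4 were separated higher (5.56% of the 36, and 5.56% of all genes) and Pole4 was separated lower (2.78%, against 4.08%). The log2FC was above 0 for 13 of the 36 (36.1%, against 47.2%), with a median of -0.06 (-0.03 over all genes) and a median size of 0.20 (0.27 over all genes). On log2(FPKM + 0.5) without further scaling 20 of the 36 lay above 0, where the median of all genes was 0.058. Pole4 had a log2FC of -0.89 (SE 0.28, edgeR adjusted p = 0.634), and -0.59 without Sham 3, and Fen1, at 7.10 ± 1.99 FPKM in I-post C and 4.22 ± 0.499 FPKM in Sham lungs (SD, n = 3 each), of 0.67 (SE 0.28, edgeR adjusted p = 0.715). Rnaseh2c was at -2.16 (SE 0.80, edgeR adjusted p = 0.677), and at -0.46 without Sham 3. Mcm4 was at 0.42 (SE 0.26, edgeR adjusted p = 0.769), and at 0.20 without Sham 3. The log2FC of the polymerase alpha and primase genes ran from 0.10 for Prim2 to 0.35 for Prim1, and that of the single-strand binding genes from -0.36 for Rpa3 to -0.07 for Ssbp1, each with a 95% interval that includes 0. Of these 8 genes, Prim1, Rpa1, Rpa2 and Rpa3 kept their sign in all 22 fits and the others did not.

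**Figure D3:**
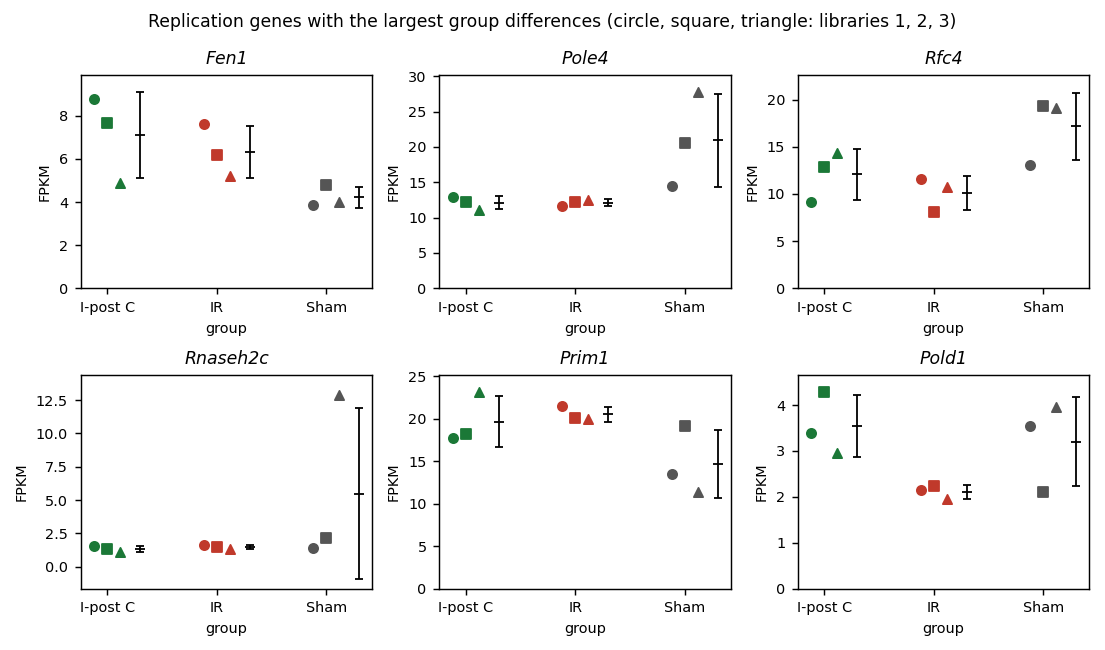
FPKM of Fen1, Pole4, Rfc4, Rnaseh2c, Prim1 and Pold1 in I-post C, IR and Sham libraries (circle, square and triangle for libraries 1, 2 and 3), with the mean and SD of each group beside the points (n = 3). Fen1 is higher and Pole4 lower in all 6 clamped libraries than in the 3 Sham libraries, and only Sham 3, at 12.9 FPKM, stands apart for Rnaseh2c. The share of all genes that separate clamped from Sham libraries as Fen1 and Pole4 do was not counted.

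Libraries of one group differed from each other in the replication genes as much as the groups did. The mean of log2(FPKM + 0.5) over Mcm2 to Mcm7 was 2.84, 3.22 and 2.72 in I-post C lungs, 2.95, 2.56 and 2.77 in IR lungs, and 2.83, 3.02 and 2.48 in Sham lungs. It was highest in I-post C 2 and lowest in Sham 3 and IR 2. I-post C 2 was the highest library of its group for 5 of the 6 MCM genes, and for 17 of all 36 (47.2%, against 39.0% of all genes). Over the 20 genes with an E2F-type match it was the highest of its group for 12 (60.0%), and over the 12 with a window and no match for 4 (33.3%).

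A list of 29 mitosis and proliferation genes, none of them among the 36, had the same highest library and the same lowest pair as Mcm2 to Mcm7. Its mean of log2(FPKM + 0.5) was 1.30, 1.92 and 1.79 in I-post C lungs, 1.64, 0.90 and 1.41 in IR lungs, and 1.36, 1.36 and 0.85 in Sham lungs. Over all 36 replication genes the mean on that scale was also highest in I-post C 2 (3.27), but lowest in IR 2 (2.98) and IR 3 (3.03). Sham 3, the lowest library for the mitosis list, was at 3.16 over the 36. Mki67, the Ki-67 proliferation antigen, had 2.22, 4.73 and 2.36 FPKM in I-post C lungs, 3.39, 1.24 and 2.21 FPKM in IR lungs and 2.63, 1.95 and 0.624 FPKM in Sham lungs. Top2a, the topoisomerase that untangles replicated chromosomes, had 3.08, 5.96 and 5.10 FPKM in I-post C lungs, 4.78, 1.26 and 3.47 FPKM in IR lungs and 4.02, 3.17 and 1.12 FPKM in Sham lungs. Levels of both overlapped between all 3 groups, and I-post C 2 was the highest of the 9 libraries for both.

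Genes of other cells also varied between these libraries. The mean of log2(FPKM + 0.5) over 7 B and plasma cell markers was highest in I-post C 2 (4.73) and ran from 1.95 (IR 3) to 3.93 (IR 1) in the others, and that over 8 T and NK cell markers ran from 2.90 (IR 3) to 4.16 (IR 1). Over 9 neutrophil markers it was 3.79, 3.57 and 5.57 in I-post C lungs, 4.14, 5.15 and 3.85 in IR lungs, and 2.93, 3.03 and 2.38 in Sham lungs. All 6 clamped libraries were thus above the Sham libraries, as for Fen1, but the order within the clamped libraries differed. I-post C 3 had the highest neutrophil mean and, at 4.90 FPKM, the lowest Fen1 of the 6. The summed level of these 9 markers, all in the table and none at 0, was 208 to 1334 FPKM in I-post C, 341 to 879 FPKM in IR and 127 to 180 FPKM in Sham libraries. Neutrophil markers were lowest of the 6 clamped libraries in I-post C 2, where the MCM and mitosis genes were highest. The part of these cells in the levels of the replication genes was not tested.

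**Figure D4:**
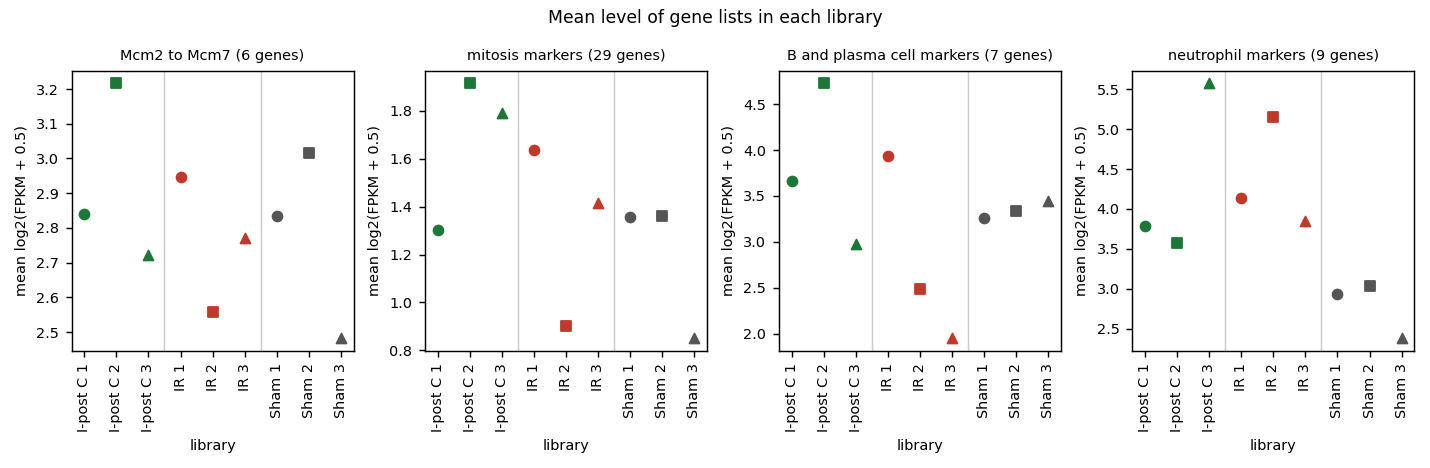
Mean of log2(FPKM + 0.5) over Mcm2 to Mcm7, 29 mitosis markers, 7 B and plasma cell markers and 9 neutrophil markers in each of the 9 libraries, with vertical axes that differ between panels. I-post C 2 is the highest library in the MCM (3.22), mitosis (1.92) and B cell (4.73) panels, and only the neutrophil panel has all Sham libraries lowest.

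Sham 3 held the lowest or the highest value for many of the genes. It was the lowest of the 9 libraries for 9 of the 36 genes (25%, against 32.1% of all genes) and the highest for 8 (22.2%, against 23.9%). The length of a transcript, taken as the length that its counts and FPKM imply together, differed between those sets. The median was 3.64 kb for the 9 genes lowest in Sham 3, which were Prim1, Pole3, Mcm2, Mcm4, Lig1, Pold3, Mcm5, Pola1 and Pole, and 1.86 kb for the 8 genes highest there. Over all genes the same medians were 3.36 and 1.64 kb. For the 6 genes of 4 kb and over, the median difference of Sham 3 from the mean of the other libraries was -0.46 on the log2(FPKM + 0.5) scale (-0.53 over all genes of that length), and for the 5 genes under 1 kb it was 0.42 (0.32). Transcript length moved with the Sham 3 values of the replication genes as it did in the table as a whole, and its part in the group comparisons was not tested. The 20 genes with an E2F-type match averaged 2.55 on that scale in Sham 3, against 2.55 to 2.94 in the other 8 libraries, and the 12 without one 4.05, against 3.53 to 3.73. Of those 12, Rnaseh2c (2.75) and Rnaseh2a (0.997) had the largest differences of Sham 3 from the mean of the other libraries, and Prim2 the lowest (-0.40). The part of single genes and of transcript length in this split was not tested.

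**Figure D5:**
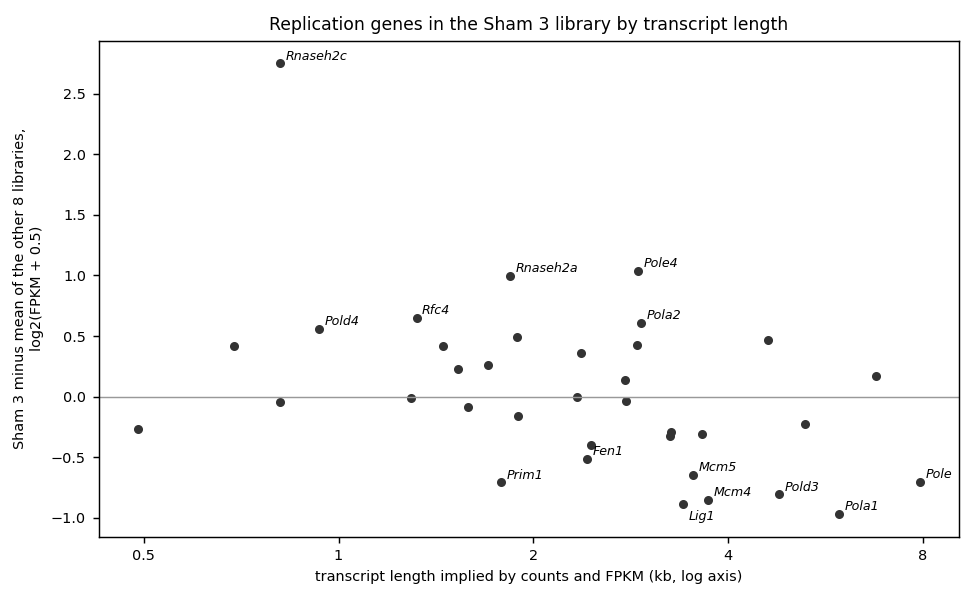
Sham 3 minus the mean of the other 8 libraries, in log2(FPKM + 0.5), against the transcript length implied by counts and FPKM (kb, log axis), 1 point per DNA replication gene. Above 0 lie 3 of the 5 genes under 1 kb, with Rnaseh2c at 2.75, and 6 of the 10 between 1 and 2 kb. So do 6 of the 15 between 2 and 4 kb and 2 of the 6 of 4 kb and over, whose median is -0.46.

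The steps around the fork were described with lists that hold no DNA replication gene of the 36. An unadjusted edgeR p under 0.05 was found for 12.2% of all genes in IR against Sham. The share was 3.01% in I-post C against IR and 6.91% in I-post C against Sham. The medians of the log2FC over all genes were -0.02, -0.01 and -0.03 in that order. Of 22 tested genes for origin licensing and firing, 0 were called by edgeR in any comparison, with an unadjusted p under 0.05 for 1, 0 and 2 of them in IR against Sham, in I-post C against IR, and for I-post C over Sham. In that order the medians of the log2FC were -0.03, 0.09 and 0.07. Cdc45, the helicase cofactor and the most abundant of them, had 55.0, 69.9 and 44.5 FPKM in I-post C lungs, 27.0, 54.1 and 39.5 FPKM in IR lungs and 30.9, 16.2 and 159 FPKM in Sham lungs, and Sham 3 and Sham 2 were the highest and the lowest of all libraries. Orc2, of the origin recognition complex, had 14.3, 14.5 and 13.2 FPKM in I-post C lungs, 17.0, 15.6 and 10.9 FPKM in IR lungs and 15.5, 13.7 and 10.2 FPKM in Sham lungs. Among 14 genes of nucleotide supply none was called, with medians of -0.03, 0.02 and -0.06 in the same order of comparisons and an unadjusted p under 0.05 for 0, 0 and 2 genes. Dut, which clears dUTP, was the most abundant of these and averaged 16.7 ± 2.97 FPKM in I-post C, 16 ± 2.65 FPKM in IR and 27.5 ± 11.2 FPKM in Sham lungs (SD, n = 3 each), followed by Shmt1 at 15.3 FPKM over all libraries. Among 10 genes of replication-coupled chromatin assembly none was called, with medians of 0.10, 0.06 and 0.19 and no unadjusted p under 0.05. Fam111a, a protease acting at forks, led them, with 92.8, 103 and 92.5 FPKM in I-post C lungs, 47.3, 28.3 and 59.3 FPKM in IR lungs and 1.69, 63.6 and 35.0 FPKM in Sham lungs. Sham 1 stood far below the other libraries for Fam111a. Slbp, the histone mRNA binding protein, averaged 20.7 FPKM.

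Of 12 tested fork protection and checkpoint genes, 1 was called, in IR against Sham. Wee1, the kinase that holds cyclin-dependent kinases inactive, had 6.64, 7.36 and 7.46 FPKM in I-post C lungs, 11.2, 8.52 and 12 FPKM in IR lungs and 4.32, 4.38 and 3.09 FPKM in Sham lungs. The groups did not overlap in any pair, with IR highest and Sham lowest. Its log2FC was 1.51 in IR against Sham (SE 0.24, edgeR adjusted p = 0.0470), -0.71 in I-post C against IR (SE 0.23, edgeR adjusted p = 1), and between I-post C and Sham it was 0.80 (SE 0.23, edgeR adjusted p = 0.590). The call in IR against Sham was made in 5 of the 22 fits, and the adjusted p was up to 0.219 in the others.

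None of the 29 tested mitosis genes was called by edgeR (1, 1 and 3 with an unadjusted p under 0.05). The medians of the log2FC were 0.27 between IR and Sham, 0.31 between I-post C and IR, and 0.57 between I-post C and Sham. In that order 23, 26 and 28 of the 29 lay above 0 (all genes, 47.9%, 47.6% and 47.2%). The list mean of log2(FPKM + 0.5) overlapped between the groups, with I-post C 1 (1.30) below Sham 1 and Sham 2 (1.36 each). The 29 genes were measured in the same libraries and are not replicates. Prc1, a spindle midzone protein and the most abundant of them, was at 11.1 ± 2.64 FPKM in I-post C, 10.4 ± 1.42 FPKM in IR and 6.44 ± 2.05 FPKM in Sham lungs (SD, n = 3 each), with edgeR adjusted p-values of 0.693 in I-post C against Sham and 0.321 in IR against Sham. Cdk1, the mitotic kinase, overlapped between all groups and averaged 7.20 FPKM. Of 24 tested G1 cyclins, inhibitors and E2F factors none was called (2, 0 and 2 with an unadjusted p under 0.05). Cdk4, the cyclin D partner kinase and the most abundant of them, had 71.7, 79.3 and 75.4 FPKM in I-post C lungs, 71.3, 58.9 and 63.7 FPKM in IR lungs and 75.4, 95.1 and 113 FPKM in Sham lungs. Every IR library was below the libraries of both other groups for Cdk4, with a log2FC of -0.50 in IR against Sham (SE 0.22, edgeR adjusted p = 0.399). Myc, a growth factor responsive transcription factor, had 31.9, 17.7 and 18.8 FPKM in I-post C lungs, 22.2, 27.3 and 36.3 FPKM in IR lungs and 10.4, 10.6 and 11.5 FPKM in Sham lungs. Every clamped library was above every Sham library for Myc, with a log2FC of 1.49 in IR against Sham (SE 0.31, edgeR adjusted p = 0.119, and under 0.05 in 2 of the 22 fits). Ccnd1, cyclin D1, averaged 40.5 ± 8.88 FPKM in I-post C, 29 ± 8.02 FPKM in IR and 39.1 ± 14.4 FPKM in Sham lungs (SD, n = 3 each). Cdkn1a, the p21 inhibitor, averaged 51.2 ± 3.66 FPKM in I-post C, 75.0 ± 24.1 FPKM in IR and 40.1 ± 27.3 FPKM in Sham lungs, and the libraries of the 3 groups overlapped for both genes.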

How the data were processed

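Poly(A)-selected RNA of 9 rat lung libraries (3 per group, grouped by sample title) was sequenced paired-end with a kit that marks strand. The processing notes name cutadapt 1.9, HISAT2 2.2.1, StringTie 2.1.6, DESeq2, edgeR and the rn6 genome. No source used here gives the tool that made the gene counts or says whether it used strand. The authors deposited 1 table with whole-number counts and FPKM per gene and library, and FPKM was computed by the authors per transcript length and library depth.

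Genes under a mean FPKM of 0.5 were left out, and the counts of the other 15402 were fitted with group as the only factor on all 9 libraries (edgeR 4.0.16, TMM scaling, quasi-likelihood test, R 4.3.3), with p-values adjusted over all of them by Benjamini-Hochberg. FPKM were used for levels, and means over lists were taken on the log2(FPKM + 0.5) scale computed from the deposited FPKM, which understates differences of low genes. Alternatives were DESeq2 1.42.0, limma 3.58.1 on log2(FPKM + 0.5, 0.1 or 1), other scalings, filters and thresholds, the replicate number as a block, and single libraries left out.

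The genes and lists were chosen with earlier results of these data known. Every replication gene may be named. From each other list, called genes or else the 2 most abundant are named, besides Mki67, Top2a, Ccnd1, Myc and Cdkn1a, and of the cell type markers Sftpc and Acta1. Other sources of variation, such as RNA extraction day, are not in the labels.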

Additional observations from a re-analysis of the deposited data

How the results depend on the processing

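No DNA replication gene was called under any of the 22 fits of any comparison (21 for Pole, which a mean FPKM limit of 1 leaves out), the lowest adjusted p being 0.0893 in IR against Sham, 0.277 in I-post C against IR and 0.114 in I-post C against Sham. The direction was kept in all 273 alternative values of 13 differences (Fen1, Prim1, Pole4, Rfc4 and Rnaseh2c in IR against Sham, Pold1, Mcm3, Pole2 and Rnaseh2c in I-post C against IR, and Fen1, Mcm4, Pole4 and Rnaseh2c between I-post C and Sham), all short of the threshold. These 13 were picked from the main fit for the largest log2FC in each direction or an unadjusted edgeR p under 0.05. The alternatives reuse the same libraries, so a kept direction is no separate support. Other members changed sign, such as Pola2, above 0 in 12 of the 22 fits of IR against Sham. The number of genes called over the whole table was not stable either, and the cause was not tested. In IR against Sham the 46 calls became 340 with DESeq2 on all libraries, 293 with DESeq2 and 6 with edgeR on the groups compared, 28 with limma at a pseudocount of 0.5 and 23 at 0.1, 5 without Sham 3 and IR 3 together, and 0 to 55 when single libraries were left out (0 without Sham 2 or IR 2, 1 without Sham 1, Sham 3 or I-post C 2, 5 without IR 3, 20 without I-post C 1 and 27 without IR 1). In I-post C against IR the 0 calls became 14 and 38 with DESeq2 on all libraries and on the groups compared, 1 without Sham 3 and IR 3 together, and 0 to 1 with single libraries left out. In I-post C against Sham they became 127 and 108 with DESeq2, 2 without Sham 3 and IR 3 together, and 0 to 8 with single libraries left out. The median log2FC of the 36 genes ran from -0.15 to 0.073 in IR against Sham, from -0.08 to 0.03 in I-post C against IR and from -0.17 to -0.012 in I-post C against Sham with single libraries left out. With limma the I-post C against IR median was 0.073 at pseudocount 0.5, 0.082 at 0.1 and 0.066 at 1, where the median of all genes was 0.11, 0.12 and 0.10.

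The labels name no pairing by replicate number, and with 3 libraries a group, correlations of deviations from the group means cannot settle it. They were over 0.1 for 4 of 9 same-numbered pairs (-0.27 to 0.45), and 4 libraries were most alike to one of their own number. With the replicate number as a block, edgeR called 26 genes in IR against Sham, and the median log2FC of the 36 genes was -0.01 in IR against Sham, -0.06 in I-post C against IR and -0.05 in I-post C against Sham.

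With 3 libraries a group, a p that misses the threshold does not show that a gene's level was the same in both groups.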
